A study of Mus musculus with 12 samples.

Results

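The 10 genes described here carry out or control fatty acid and triglyceride synthesis: Acly, Acaca, Fasn, Me1, Elovl6, Scd1, Scd2, Dgat1, Dgat2 and Srebf1. They were chosen by symbol, and all 10 were found among the 46603 genes of the count table and passed the filter on low counts in both tissues. The list was drawn up with the counts of these same 4 groups and their fold changes in view, with no threshold given for membership. Their levels and fold changes, adjusted p-values included, are therefore a description of these genes and not independent evidence about them.

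RNA was measured in bulk, as poly-A RNA, in ileum and ankle synovium of TNFdARE mice and of their WT littermates. Each of the 4 groups held 3 libraries labelled as biological replicates, which makes 12 libraries. TNFdARE mice lack the AU-rich element of the Tnf messenger RNA, a sequence that keeps the transcript short-lived and poorly translated, and inflammation of the ileum and joints is the known phenotype of these mice. The deletion is in the germ line, so it is present in every cell type, and no further agent or allele is named in the labels of any group. Age, sex and zygosity are not labelled, and a link between the ileum and the synovium of one mouse is not labelled either.

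Library totals lay between 14267834 and 16224402 counts. Levels are CPM, counts scaled to a common library size, after correction by TMM, which removes differences in library composition, and 3 counts in a library correspond to between 0.185 and 0.210 CPM before that scaling. Tnf lay between 17.2 and 82.5 CPM in TNFdARE and between 1.39 and 2.64 CPM in WT ileum, and between 28.3 and 38.5 against 1.88 to 2.14 CPM in the synovium. TNFdARE ileum replicate 2 stood apart from its group, with the lowest Tnf, the lowest sum of macrophage markers (1179.1 CPM against 2860.8 and 4970.2) and the highest sum of enterocyte markers. Xist reached 829 to 1514.5 CPM in replicate 3 of each group and at most 0.692 CPM in the others, and Ddx3y, a gene of the Y chromosome, was at 0 in those same 4 libraries. Replicate 3 was thus female and replicates 1 and 2 male in every group. The labelled tissues carried their markers, with Anpep and Apob leading the enterocyte list in the ileum and Col1a2 and Col1a1 leading the fibroblast list in the synovium. The synovium also held markers of adipocytes and skeletal muscle, which are given below beside the genes they moved with.

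Fatty acids are built in the cytosol from acetyl-CoA, which Acly releases from exported citrate and Acaca carboxylates to malonyl-CoA. Fasn joins these units into palmitate with NADPH that Me1 helps to supply, Elovl6 lengthens palmitate to stearate, and the stearoyl-CoA desaturases Scd1 and Scd2 turn saturated into monounsaturated acyl chains. Dgat1 and Dgat2 complete triglycerides from diacylglycerol, and Srebf1 encodes the transcription factor SREBP-1, which drives many of these genes. In the gut, enterocytes use Dgat1 to repackage dietary fat for export, and Scd1 is abundant in fat cells.

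On the mouse build GRCm38, chromosome 11 carries Acly (100476353 to 100528000, minus strand), Acaca (84129672 to 84401651, plus strand), Fasn (120805846 to 120824547, minus strand) and Srebf1 (60199089 to 60222581, minus strand). Scd1 (44394455 to 44407879, minus strand) and Scd2 (44293674 to 44306864, plus strand) are neighbours on chromosome 19. Me1 is on chromosome 9 (86581371 to 86695953, minus strand), Elovl6 on chromosome 3 (129532355 to 129638495, plus strand), Dgat1 on chromosome 15 (76502015 to 76511953, minus strand) and Dgat2 on chromosome 7 (99153658 to 99182719, minus strand). The Scd genes are paralogs, so reads could be split between Scd1, Scd2 and their relatives in a way that depends on the counting. Srebf1 shares 109 exon bases with Rai1 on the opposite strand, and whether counting used strand is not given in the sources used here.

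RefSeq promoter windows of GRCm38.p6 were found for 6 of the 10 genes, 9 windows in all, for Acly, Acaca, Fasn, Me1, Elovl6 and Srebf1. The 250 bases upstream of 5 start sites are shown, because Acly, Acaca, Fasn, Me1 and the regulator Srebf1 all had a higher mean in TNFdARE than in WT ileum. Capitals mark matches on either strand to CCAAT (the NF-Y motif, ATTGG on the opposite strand) or GGGCGG (the GC box, CCGCCC on the opposite strand). They lie at chr11:120824548-120824797 for Fasn, chr11:100528001-100528250 for Acly, chr9:86695915-86696164 for Me1 and chr11:60210472-60210721 for Srebf1, each on the minus strand, and at chr11:84195188-84195437 on the plus strand for Acaca, and are printed 5′ to 3′. The printed Acaca and Srebf1 windows belong to start sites inside the genes, so they do not cover the outermost start of either gene. Me1 had 2 windows and Srebf1 3, of which 1 each is printed. A Srebf1 window that is not printed, upstream part chr11:60222582-60222831, belongs to the outermost start and held 1 CCAAT match, beginning 166 bases before that start.
Fasn: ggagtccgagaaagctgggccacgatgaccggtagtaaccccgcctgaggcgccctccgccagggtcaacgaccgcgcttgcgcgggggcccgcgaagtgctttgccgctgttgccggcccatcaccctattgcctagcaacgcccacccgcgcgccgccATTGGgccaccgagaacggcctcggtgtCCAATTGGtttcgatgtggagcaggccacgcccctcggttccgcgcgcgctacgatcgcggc
Acly: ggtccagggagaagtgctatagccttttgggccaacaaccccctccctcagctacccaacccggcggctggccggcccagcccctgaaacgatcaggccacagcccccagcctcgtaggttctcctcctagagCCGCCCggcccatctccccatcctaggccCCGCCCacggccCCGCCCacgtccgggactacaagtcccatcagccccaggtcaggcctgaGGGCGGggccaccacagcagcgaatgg
Me1: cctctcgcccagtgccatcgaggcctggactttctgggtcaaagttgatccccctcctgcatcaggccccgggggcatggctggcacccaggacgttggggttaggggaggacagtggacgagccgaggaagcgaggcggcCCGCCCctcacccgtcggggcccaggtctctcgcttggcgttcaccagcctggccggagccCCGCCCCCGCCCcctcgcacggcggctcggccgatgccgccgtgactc
Acaca: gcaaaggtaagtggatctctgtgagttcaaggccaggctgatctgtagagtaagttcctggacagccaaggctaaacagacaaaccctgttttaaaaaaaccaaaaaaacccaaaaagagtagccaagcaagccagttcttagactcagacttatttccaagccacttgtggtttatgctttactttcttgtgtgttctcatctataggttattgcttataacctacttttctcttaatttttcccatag
Srebf1: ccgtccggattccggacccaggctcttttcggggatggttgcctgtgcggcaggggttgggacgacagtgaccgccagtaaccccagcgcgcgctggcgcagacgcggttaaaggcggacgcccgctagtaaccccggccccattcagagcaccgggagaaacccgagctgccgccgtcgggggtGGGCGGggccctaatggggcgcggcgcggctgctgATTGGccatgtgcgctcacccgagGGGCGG
The Fasn window held 3 CCAAT matches, beginning 90, 62 and 59 bases before the start site, and the last 2 overlap in the palindrome CCAATTGG. The Acly window held 4 GC boxes before its start site and the printed window of Me1 held 3. The printed window of Srebf1 held 2 GC boxes and 1 CCAAT match, and the Acaca window inside the gene held neither motif. Over all 9 windows of 300 bases, which reach 50 bases past the start, CCAAT was present in 5 and the GC box in 4. Of all 32851 mouse promoter windows of that length, 37.4% held CCAAT and 35.7% the GC box. Neither the sterol regulatory element TCACNCCAC (1.24% of all windows), nor the E-box CACGTG (7.15%), nor the direct repeat DR4 read by liver X receptors (0.0152%) was found in the 9 windows, which says only that these letters are not within them.

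**Figure D1:**
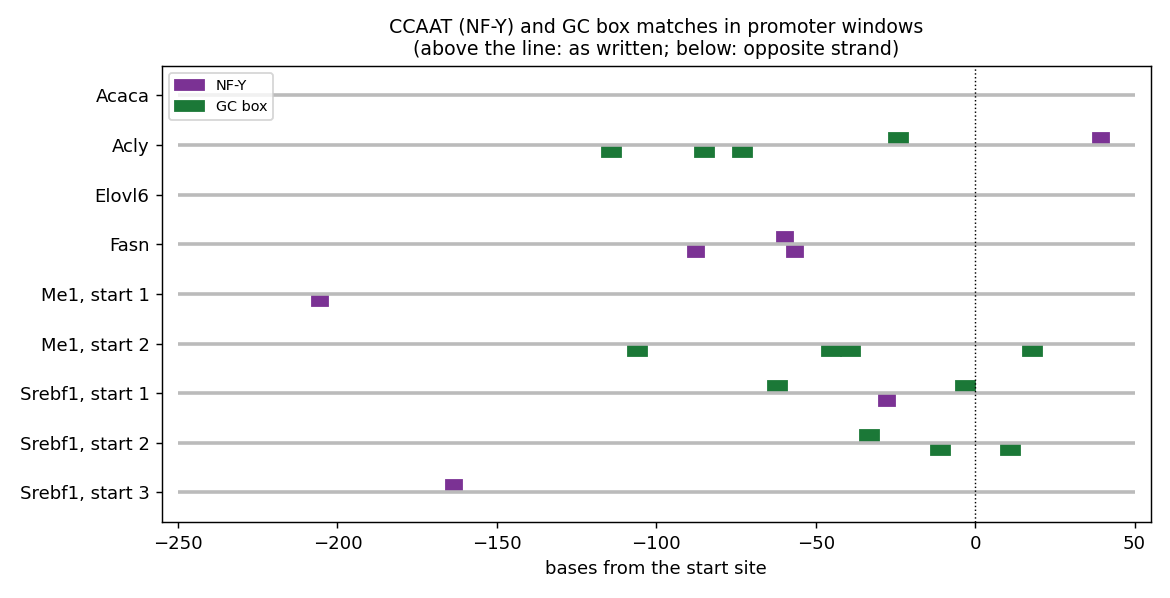
Positions of CCAAT (purple) and GC box (green) matches in the 9 promoter windows; the horizontal axis gives bases from the start site, from 250 before to 50 after, and marks above or below a line lie on the printed or the opposite strand. The windows of Acaca and Elovl6 hold no match, and the 3 Fasn matches lie within 90 bases of the start.

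In the WT mice a different desaturase was the more abundant in each tissue. Per kilobase of exon, Scd2 led in WT ileum at 108 ± 28.2 CPM (mean ± SD, n = 3, as for all means here), and its range of 76.9 to 131 enclosed that of Dgat1 (88.7 to 96.9). In WT synovium Scd1 led at 925 ± 116 CPM per kilobase, with no overlap with Scd2 in second place at 43.5 ± 6.71. The ratio of Scd1 to Scd2 per kilobase was 0.193 ± 0.0658 in WT ileum and 21.4 ± 1.87 in WT synovium. Scd1 alone held between 80.4 and 82.8% of all counts of the 10 genes in WT synovium and between 4.49 and 6.56% in WT ileum.

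Below the leading genes the order by CPM per kilobase of exon was as follows. In WT ileum, Acly (38.7 CPM per kilobase), Dgat2 (29.8), Elovl6 (22.8) and Scd1 (19.6) followed without overlapping ranges. Fasn (17) overlapped both Scd1 and Srebf1 (13.4), and Me1 (4.32) and Acaca (2.98) were lowest. In WT synovium, Acly (32.1), Fasn (24.6) and Srebf1 (22.1) followed the desaturases, each apart from the next. Dgat2 (17.2), Dgat1 (16.4) and Me1 (12.3) overlapped with their neighbours in that order, and Acaca (3.37) and Elovl6 (3.36) could not be ordered. The FPKM deposited by the authors, adjusted by an unstated step, gave another order for some of these genes. In WT ileum Dgat2 (37.1 to 41.3) then lay above Acly (31.7 to 32.8), and Elovl6 overlapped Scd1. In WT synovium Acly overlapped Fasn and Fasn overlapped Srebf1, while Dgat2 lay above Dgat1 without overlap. Me1 and Acaca were still lowest in WT ileum, and Acaca and Elovl6 in WT synovium.

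Compared gene by gene between the WT tissues, Scd1, Me1, Fasn and Srebf1 were higher in the synovium and Elovl6, Dgat1, Scd2, Dgat2 and Acly were lower. Scd1 was 47.3-fold higher, a log2 difference of 5.56 ± 0.25 (SE, edgeR adjusted p = 6.75e-09). Elovl6 was 6.76-fold lower (log2 difference -2.76 ± 0.16, adjusted p = 5.39e-08) and Dgat1 5.66-fold lower (-2.50 ± 0.23, adjusted p = 2.42e-06). For Me1 the log2 difference was 1.51 ± 0.14. The other called differences were smaller, with log2 values of 0.73 for Srebf1, 0.54 for Fasn, -0.27 for Acly, -0.79 for Dgat2 and -1.31 for Scd2. Acaca, at 0.18 (adjusted p = 0.139), was called only with library totals alone as scaling (0.33, adjusted p = 0.0232). Thus 9 of 10 were called at an adjusted p under 0.05, where 74.2% of all 16964 genes were (38.2% higher and 36% lower), and the tissue groups did not overlap for 10 of 10, as for 78.6% of all genes. The call of Acly ended when library totals alone were used for scaling (log2 difference -0.12, adjusted p = 0.369) and without WT ileum replicate 1 or any WT synovium library (-0.26 to -0.29, adjusted p from 0.0538 to 0.0812).

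Between the TNFdARE tissues, which share no library with the WT contrast, Scd1 remained higher in the synovium, by 8.86-fold (log2 difference 3.15 ± 0.22, adjusted p = 3.26e-07). Me1 was higher by 0.33 ± 0.14 (adjusted p = 0.0492; 0.32 and 0.0519 with replicate number as a block). Elovl6, Dgat2 and Dgat1 were lower by 4.48-, 4.47- and 4.38-fold, and Scd2 by 3.16-fold. Acly (-0.34) and Acaca (-0.35) were also called lower. Fasn (log2 difference -0.28, adjusted p = 0.106) and Srebf1 (-0.12, adjusted p = 0.466) did not pass. In all 8 of 10 were called, where 66.7% of all genes were (31.6% higher and 35% lower), and 8 of 10 did not overlap (70.7% of all genes). The calls of Acly and Acaca ended with library totals alone as scaling (-0.26 and -0.27, adjusted p = 0.0651 and 0.0637), and that of Me1 without the filter on low counts (0.34, adjusted p = 0.0568) and with limma-voom (0.31, adjusted p = 0.0660). The Me1 call also ended without TNFdARE synovium replicate 1 (0.17, adjusted p = 0.232) or TNFdARE ileum replicate 3 (0.31, adjusted p = 0.119). Acly and Acaca lost theirs without TNFdARE ileum replicate 1 (-0.15 and -0.24, adjusted p = 0.111 and 0.1), and Acaca also without TNFdARE ileum replicate 2 (-0.29, adjusted p = 0.0546) or TNFdARE synovium replicate 3 (-0.25, adjusted p = 0.0570).

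**Figure D2:**
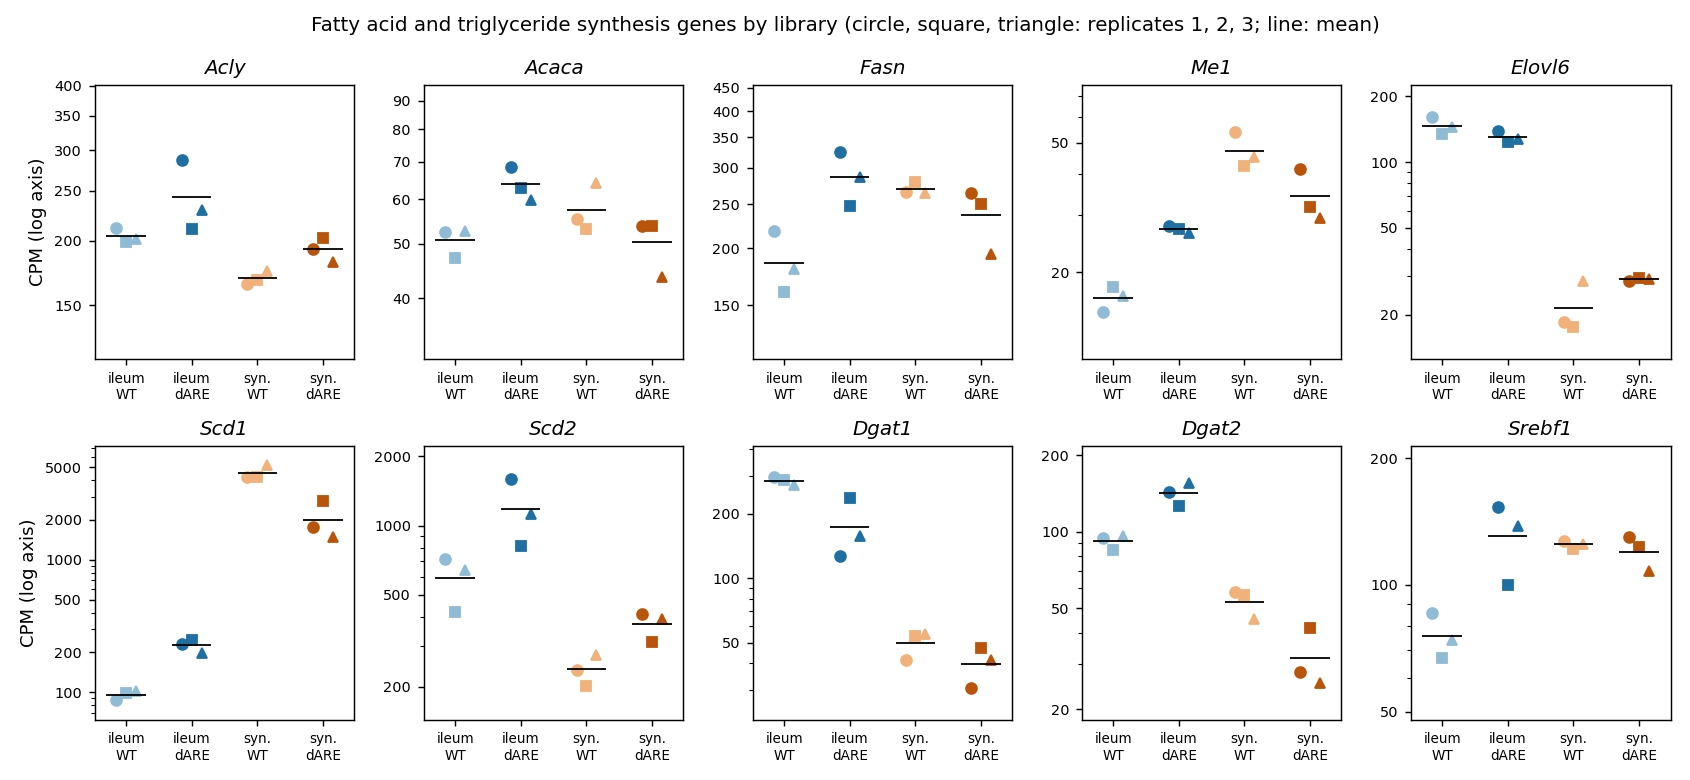
CPM of each gene in every library on log axes, which differ between panels; light symbols are WT, dark symbols TNFdARE, blue ileum and orange synovium, with circle, square and triangle for replicates 1, 2 and 3 and a line at the group mean. Scd1 lies between 87 and 102 CPM in WT ileum and between 4183.2 and 5179 CPM in WT synovium, with both TNFdARE groups between these levels.

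In the ileum, 3 of the 10 genes were higher in TNFdARE than in WT: the desaturase Scd1, the NADPH-producing malic enzyme Me1 and the acyltransferase Dgat2. None was lower at that threshold. Of all 15462 genes tested, 5.68% were called, 4.12% as higher and 1.57% as lower. The median log2 fold change was 0.63 over the 10 genes and 0.0 over all genes. TNFdARE and WT ileum did not overlap for 8 of 10 genes (37.4% of all genes), the exceptions being Acly and Elovl6. In bulk tissue, a lower or higher level can come from the number of cells of a type or from RNA per cell, and these cannot be told apart.

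Of the genes that make palmitate, Me1 changed most clearly in the ileum. Me1 read 27.7, 27.2 and 26.4 CPM in TNFdARE replicates 1, 2 and 3 and 15.1, 18 and 16.9 CPM in WT. All TNFdARE libraries were higher and close to each other, and the log2 fold change was 0.71 ± 0.10 (adjusted p = 0.0389). Fasn, the synthase itself, read 326, 247 and 286 against 218, 160 and 180 CPM. The Fasn groups did not overlap, but its log2 fold change of 0.63 ± 0.15 missed the threshold (adjusted p = 0.0551) and passed it with the replicate block (0.63, adjusted p = 0.0210). Acaca, the carboxylase, read 68.6, 62.9 and 59.9 against 52.5, 47.1 and 52.8 CPM (0.34 ± 0.09, adjusted p = 0.0645), again without overlap. Acly was at 287, 211 and 230 against 212, 199 and 202 CPM, where TNFdARE replicate 2 fell inside the WT range (0.26 ± 0.12, adjusted p = 0.208).

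Both desaturases had higher means in TNFdARE ileum. Scd1 read 231, 248 and 199 CPM in TNFdARE and 87, 99.5 and 102 CPM in WT, so every TNFdARE library was well above every WT library. Its log2 fold change was 1.24 ± 0.11, a 2.36-fold difference (adjusted p = 0.0305). Scd2 varied far more within groups, at 1586.2, 817 and 1121.3 against 718, 420 and 639 CPM. In both genotypes replicate 1 of Scd2 was highest and replicate 2 lowest, and its log2 fold change of 1.00 ± 0.30 (adjusted p = 0.0883) missed the threshold and passed it with the replicate block (0.98, adjusted p = 0.0221). The elongase Elovl6 read 139, 123 and 128 against 161, 135 and 144 CPM, with overlapping groups (-0.17 ± 0.09, adjusted p = 0.257).

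The acyltransferases went apart in the ileum. Dgat2 read 143, 126 and 156 CPM in TNFdARE and 94.2, 85 and 96.3 CPM in WT, without overlap and with a log2 fold change of 0.63 ± 0.10 (adjusted p = 0.0404). Dgat1 read 127, 236 and 158 against 296, 286 and 271 CPM. Every TNFdARE library of Dgat1 was below every WT library, with replicate 2 nearest to WT, and its log2 fold change was -0.71 ± 0.22 (adjusted p = 0.0920). The ratio of Dgat1 to Dgat2 per kilobase was 0.896, 1.89 and 1.02 in TNFdARE and 3.17, 3.39 and 2.84 in WT ileum. The summed CPM of 10 enterocyte markers stood in the same order as Dgat1 across the TNFdARE libraries, at 8922.5, 16335.3 and 12068.6, and lay between 21140.6 and 22326.9 in WT. Of those 10 markers 9 had a log2 fold change below 0 and 1 above, with a median of -0.51. Only 1 was called, as lower, where 1.57% of all genes were. The part of enterocytes in the Dgat1 values was not tested.

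Srebf1, the regulator, read 153, 100 and 138 CPM in TNFdARE ileum and 85.6, 66.9 and 74.1 CPM in WT. The groups did not overlap, and the log2 fold change was 0.80 ± 0.17 (adjusted p = 0.0515; 0.78 and 0.0218 with the replicate block). In both genotypes replicate 2 was lowest for Srebf1 as for Fasn, Acly and Scd2. TNFdARE replicate 2 was also the library with the lowest Tnf and the lowest macrophage sum, and the part of that difference between libraries in these values was not tested. Markers of other cells moved with genotype in the ileum too. Of 8 macrophage markers 4 were called higher, where 4.12% of all genes were, with sums of 1179.1 to 4970.2 CPM in TNFdARE and 321 to 436 CPM in WT. Of 7 fibroblast markers tested 4 were called higher, with sums of 1393.9 to 1578.8 CPM in TNFdARE and 854 to 983 CPM in WT. Their part in the values of the 10 genes was not tested.

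The ileum calls rested on few libraries. With the replicate block 6 of the 10 genes and 1128 genes in all were called. With library totals alone as scaling 6 of the 10 and 1379 in all were called, a scaling that moves the median of all genes to 0.11 and the share of higher genes among those called from 72.5% to 88.3%. Without TNFdARE replicate 2, 9 of the 10 were called and 4633 genes in all. Without TNFdARE replicate 3 or any WT replicate none of the 10 was called by edgeR: Scd1 then had log2 fold changes of 1.33, 1.17, 1.26 and 1.28 (adjusted p = 0.0783, 0.119, 0.150 and 0.174), Me1 of 0.73, 0.64, 0.76 and 0.72 (adjusted p = 0.155, 0.153, 0.150 and 0.174) and Dgat2 of 0.56, 0.65, 0.58 and 0.67 (adjusted p = 0.155, 0.153, 0.150 and 0.174).

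In the synovium 3 of the 10 genes were called, and the desaturases moved in opposite directions: Scd1 and Dgat2 were lower in TNFdARE, and Scd2 was higher. Of all 15599 genes tested 23.8% were called, 13.1% as higher and 10.7% as lower. The median log2 fold change was -0.17 over the 10 genes and 0.0 over all genes. The groups did not overlap for 6 of 10 genes (44% of all genes), namely Acly, Fasn, Me1, Scd1, Scd2 and Dgat2.

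Scd1 read 1762.9, 2770.7 and 1490.5 CPM in TNFdARE synovium replicates 1, 2 and 3 and 4183.2, 4214.4 and 5179 CPM in WT. The highest TNFdARE library, replicate 2, was still well below the lowest WT library, and the log2 fold change was -1.15 ± 0.24, a 2.22-fold decrease (adjusted p = 0.0160). Scd2 read 412, 313 and 393 against 237, 201 and 274 CPM, where all TNFdARE libraries were above WT (0.67 ± 0.15, adjusted p = 0.0169). The ratio of Scd1 to Scd2 per kilobase was accordingly 4.78, 9.87 and 4.23 in TNFdARE and 19.7, 23.4 and 21.1 in WT. Scd1 held between 58.8 and 71.7% of the counts of the 10 genes in TNFdARE synovium. The other 9 genes together took between 0.112 and 0.121% of the library in TNFdARE and between 0.0997 and 0.116% in WT, ranges that overlap. Elovl6 read 28.5, 29.4 and 29.3 against 18.5, 17.6 and 28.6 CPM, with WT replicate 3 inside the TNFdARE range (0.45 ± 0.19, adjusted p = 0.124). Without that library the log2 fold change of Elovl6 was 0.71 (adjusted p = 0.0105).

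Dgat2 read 27.9, 41.9 and 25.4 CPM in TNFdARE and 57.7, 56.2 and 45.2 CPM in WT synovium. TNFdARE replicate 2 came close to WT replicate 3 without reaching it, and the log2 fold change was -0.72 ± 0.20 (adjusted p = 0.0458). Dgat1 read 30.6, 47.3 and 41.4 against 41.6, 54.0 and 54.6 CPM. Its groups overlapped, and its log2 fold change of -0.31 ± 0.19 (adjusted p = 0.265) passed only with the replicate block (-0.32, adjusted p = 0.0293) among all alternatives run.

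Of the genes that make palmitate none passed in the synovium in the fit of its 6 libraries without a block. Me1 read 41.6, 31.7 and 29.3 CPM in TNFdARE and 53.9, 42.5 and 45.1 CPM in WT, with TNFdARE replicate 1 just under the lowest WT library. Its log2 fold change was -0.44 ± 0.15 (adjusted p = 0.0674), and it was called with the replicate block (-0.45, adjusted p = 0.00911), in the model of all 12 libraries (-0.47, adjusted p = 0.0316), with DESeq2 (-0.45, adjusted p = 0.0384) and without TNFdARE replicate 1 (-0.61, adjusted p = 0.0247). Fasn read 264, 250 and 194 against 266, 279 and 264 CPM, groups that only just stayed apart, with replicate 3 of TNFdARE lowest (-0.17 ± 0.12, adjusted p = 0.319). Acaca read 53.9, 53.7 and 43.6 against 55.3, 53.1 and 64.2 CPM (-0.17 ± 0.11, adjusted p = 0.314). Acly was slightly higher in every TNFdARE library, at 193, 203 and 182 against 165, 168 and 175 CPM (0.21 ± 0.07, adjusted p = 0.0756). Srebf1 overlapped between genotypes, at 130, 123 and 108 against 127, 122 and 125 CPM (-0.03 ± 0.08, adjusted p = 0.810).

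Synovium calls also ended in fits with 1 library left out, which hold 2 libraries in 1 group. Over all genes the number called then fell too, from 3713 to between 2141 and 2927. Scd1 was no longer called without TNFdARE replicate 1 (log2 fold change -1.07, adjusted p = 0.0515), without WT replicate 3 (-1.04, adjusted p = 0.0561) or in replicates 1 and 2 only, the males (-0.86, adjusted p = 0.126). Scd2 was no longer called without TNFdARE replicate 1 (0.59, adjusted p = 0.0525), TNFdARE replicate 3 (0.63, adjusted p = 0.0619) or WT replicate 1 (0.66, adjusted p = 0.0542). Dgat2 kept its call only without TNFdARE replicate 2 among the 6 libraries left out in turn, and had adjusted p from 0.0686 to 0.123 without the others (-0.58 to -0.81). In replicates 1 and 2 only, Scd2 (0.75, adjusted p = 0.0740) and Dgat2 (-0.68, adjusted p = 0.148) were not called either. The 1 gene of the 10 called there was Elovl6 (0.70, adjusted p = 0.0462).

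**Figure D3:**
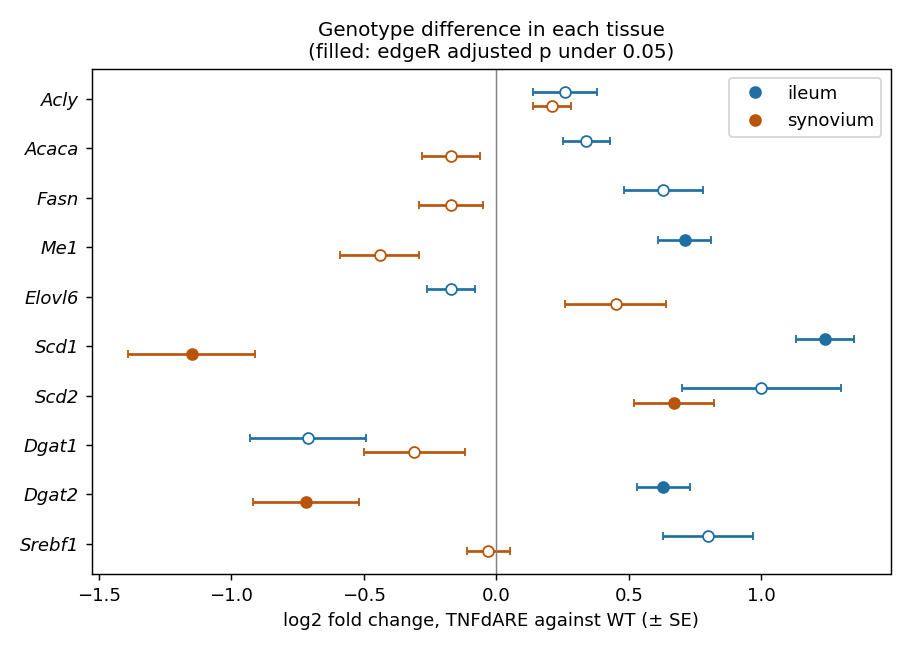
Log2 fold change of TNFdARE against WT for each gene in ileum (blue) and synovium (orange); bars are the SE, and filled points passed an edgeR adjusted p of 0.05. Scd1, at 1.24 and -1.15, and Dgat2, at 0.63 and -0.72, are filled on opposite sides of 0.

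The genotype effect differed between the tissues for 6 of the 10 genes, tested as the interaction over all 12 libraries. All 6 were lower in the synovium relative to the ileum, where 12.1% of all genes were called, 5.28% as higher and 6.80% as lower. The median interaction was -0.68 over the 10 genes and -0.08 over all genes. Among all genes called the share of higher ones was 43.7%, but 52.4% with RLE factors and 31.2% with library totals alone. Scd1 had the lowest value of the 10, a log2 difference of -2.42 ± 0.30 (adjusted p = 0.00154). Dgat2 followed at -1.37 ± 0.24 (adjusted p = 0.00759) and Me1 at -1.18 ± 0.19 (adjusted p = 0.00553). These 3 were called under each of 18 alternatives. Srebf1 (-0.85 ± 0.20, adjusted p = 0.0243), Fasn (-0.82 ± 0.20, adjusted p = 0.0286) and Acaca (-0.53 ± 0.15, adjusted p = 0.0443) were called in 13, 10 and 3 of them. The call of Acaca ended under the replicate block (-0.53, adjusted p = 0.0758), with RLE factors (-0.47, adjusted p = 0.0596), without the filter on low counts (-0.52, adjusted p = 0.0578), with limma-voom (-0.53, adjusted p = 0.0510) and without any library other than WT synovium replicate 2 (-0.40 to -0.58, adjusted p from 0.0513 to 0.135).

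Srebf1 was not called without ileum TNFdARE replicate 3, ileum WT replicates 2 or 3, synovium TNFdARE replicate 3 or synovium WT replicate 3 (-0.70 to -0.85, adjusted p from 0.0528 to 0.0638). Fasn was not called without those libraries, ileum TNFdARE replicate 1 or synovium WT replicates 1 or 2 (-0.65 to -0.84, adjusted p from 0.0528 to 0.0744). For the other genes the difference between tissues did not pass. It was -0.35 ± 0.36 for Scd2 (adjusted p = 0.566), 0.37 ± 0.31 for Dgat1 (adjusted p = 0.466), -0.07 ± 0.15 for Acly (adjusted p = 0.791) and 0.59 ± 0.22 for Elovl6 (adjusted p = 0.0971). Elovl6 passed without synovium WT replicate 3 (0.85, adjusted p = 0.00648).

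Scd1 stood beside a lower level of adipocyte markers in the synovium. Of 15 adipocyte markers 13 were called lower in TNFdARE and none higher, where 10.7% of all genes were called lower. Their median log2 fold change was -1.30. The 2 most abundant of these markers were Car3, a carbonic anhydrase that skeletal muscle also makes, and Cfd, the adipokine adipsin. Car3 read 1027.4, 863 and 510 against 2478.3, 1579.3 and 2137 CPM (-1.35 ± 0.29, adjusted p = 0.0191). Cfd read 471, 589 and 306 against 865, 860 and 943 CPM (-0.94 ± 0.22, adjusted p = 0.0268). For both, each TNFdARE library was below each WT library. The summed adipocyte markers read 2249.9, 2557.9 and 1500.6 CPM in TNFdARE and 5368.2, 4249.1 and 5588.4 CPM in WT synovium, and none of the 15 was at 0. Without WT replicate 3 the number called was 8, and in replicates 1 and 2 only it was 1.

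Counts of Scd1 divided by the summed counts of these markers were 0.784, 1.08 and 0.993 in TNFdARE and 0.779, 0.992 and 0.927 in WT synovium, ranges that overlap. In the ileum the same ratio was 1.08, 0.820 and 0.892 in TNFdARE and 0.356, 0.437 and 0.480 in WT, without overlap. The summed adipocyte markers of the ileum lay between 215 and 303 CPM in TNFdARE and between 212 and 244 CPM in WT, and of 13 tested none was called by edgeR. The part of fat tissue in the synovial Scd1 values was not tested, and the ratio cannot tell the number of fat cells from RNA per cell. Other markers moved in the synovium as well. Skeletal muscle markers summed to 7514.8, 4341.7 and 1891.1 CPM in TNFdARE and 20260.6, 11338.1 and 11957.9 CPM in WT. All 8 had a log2 fold change below 0, with a median of -1.66, and 1 was called lower, where 10.7% of all genes were. Within each genotype Car3, from the adipocyte list, stood in the same order as this muscle sum. The part of muscle in the adipocyte sum and in the ratio was not tested. Macrophage markers summed to 5354.5 to 6944.6 against 1812.2 to 2324.5 CPM, with 7 of 8 called higher, where 13.1% of all genes were. Schwann cell and myelin markers had 8 of 8 below 0, with a median of -0.69 and 1 called lower. Fibroblast markers summed to 43347.3 to 47808.5 CPM in TNFdARE and 53059.4 to 90933.3 CPM in WT. Of 8 fibroblast markers 6 were below 0, with 2 called higher and 1 called lower. Sebaceous gland markers, which skin glands rich in Scd1 would bring, had 4 of 5 tested members below 0, with 2 called lower, 1 called higher and a median log2 fold change of -1.40. Those called lower were Mc5r, at 0.841, 1.27 and 0.987 against 2.77, 2.79 and 2.79 CPM, and Krt79, at 0.360, 0.519 and 0.232 against 1.31, 1.49 and 0.910 CPM. Soat1, called higher, made 75.6 to 85.9 of a sum of 84.5 to 90.6 CPM in TNFdARE and 45.2 to 58.0 of 56.2 to 69.0 CPM in WT. Keratinocyte markers summed to 3.92 to 5.05 CPM in TNFdARE and 10.6 to 11.2 CPM in WT synovium, without overlap. Of 8, Krt5, Krt14, Flg and Dsg3 were at 0 in all synovium libraries, and of 2 tested Krtdap was called lower (-2.05 ± 0.25, adjusted p = 0.00228). The genes named from both lists were picked after their values were seen, and the part of skin in the synovial values of the 10 genes was not tested.

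**Figure D4:**
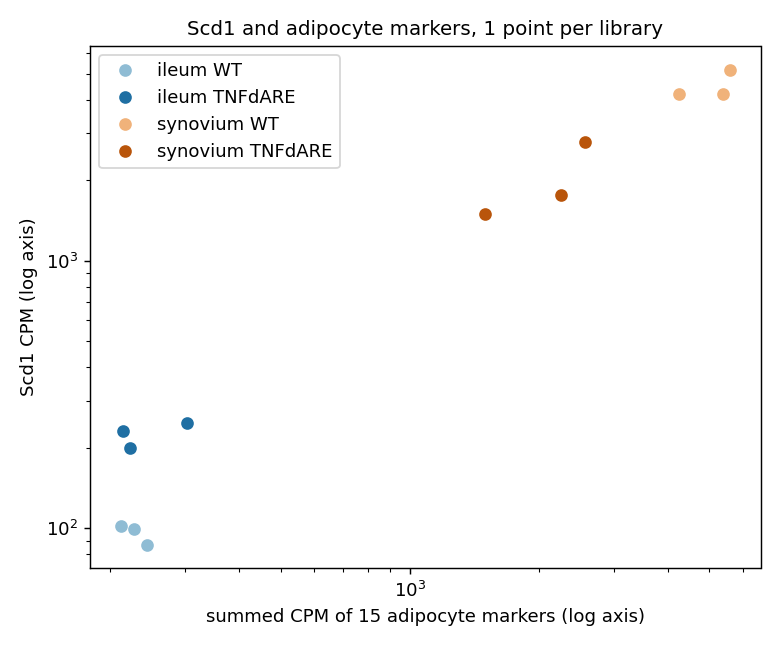
Scd1 CPM against the summed CPM of 15 adipocyte markers, both on log axes, with 1 point for each of the 12 libraries. Synovium libraries (orange) lie between 1500.6 and 5588.4 CPM of marker sum with Scd1 between 1490.5 and 5179 CPM, while TNFdARE and WT ileum (blue) share a range of marker sums and differ in Scd1.

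The genes whose log2 CPM followed Scd1 most closely over the 6 synovium libraries were Fbxl4 (Pearson r = 0.9986), Abcd2 (0.9964), Gpc3 (0.9959), Cidec (0.9959) and Myom2 (0.9953), of 11150 genes compared. Abcd2 is a peroxisomal transporter and Cidec a lipid droplet protein from the adipocyte list, while Myom2 is a protein of muscle. For Dgat2 in the ileum they were Lbp (0.9978), Lama5 (0.9976), Lix1l (0.9971), Rora (0.9962) and Spon1 (0.9957), of 10991 genes. The 6 libraries form 2 genotype groups, so these values mostly rank genes by the same genotype difference, and they carry no test.

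The 73 other genes of the pathway, in 7 lists, were described in the same fits. In the ileum 67 were tested, of which 2 were called higher and 4 lower, with a median log2 fold change of 0.07. Over all genes of the ileum 4.12% were called higher and 1.57% lower. In the synovium 68 were tested, of which 23 were called higher and 8 lower, with a median of 0.14. Over all genes of the synovium 13.1% were called higher and 10.7% lower. Of the 23 called higher, 9 were SREBP-2 target genes of sterol synthesis and uptake, which do not make fatty acids or triglycerides. Genes that supply acetyl-CoA and malonyl-CoA gave no call among 8 in the ileum, where Slc25a1, the citrate carrier that feeds Acly, stood at a log2 difference of 0.22 (adjusted p = 0.297). In the synovium 1 of 8 rose and 2 fell. Mid1ip1, which promotes polymerization of acetyl-CoA carboxylase, rose by 0.43 (adjusted p = 0.00870), and its relative Thrsp, a lipogenic protein of fat and liver, read 14.5, 15.2 and 5.98 against 29.1, 29.0 and 32.9 CPM (-1.33 ± 0.33, adjusted p = 0.0342). Mlycd, which removes malonyl-CoA, fell by 0.50 on the log2 scale (adjusted p = 0.0326). Thrsp lost its call without TNFdARE replicate 1 or any WT library (-1.26 to -1.50, adjusted p from 0.0557 to 0.0999), and Mlycd without TNFdARE replicates 2 or 3 or WT replicates 1 or 3 (-0.39 to -0.54, adjusted p from 0.0662 to 0.106).

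In the list for NADPH supply, Me2 went the other way from Me1 in the ileum. Me2 is a mitochondrial malic enzyme that mainly uses NAD, so its value does not stand for NADPH. It read 185, 298 and 215 against 476, 421 and 496 CPM, without overlap (-0.99 ± 0.18, adjusted p = 0.0412). Of the 6 genes of the list it was the only 1 called there. In the synovium Pgd, of the pentose phosphate pathway, was the only 1 of 6 called (0.66 ± 0.14, adjusted p = 0.0136), and that call ended without WT replicate 3 (0.63, adjusted p = 0.0553). Elongases and desaturases gave no call among 10 in the ileum, where Elovl1 stood at -0.38 (adjusted p = 0.0704). In the synovium 5 of 11 rose and none fell, with a median of 0.33: Elovl1 (0.43, adjusted p = 0.00535), Hsd17b12 (0.42, adjusted p = 0.00719) and Fads2, a desaturase of polyunsaturated fatty acids (0.64, adjusted p = 0.0108), were the first 3.

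Acyl-CoA synthetases activate fatty acids for use in lipids. Acsl4, which prefers arachidonic acid, rose in both tissues, from 21.1 to 42.1 CPM in the ileum (1.01 ± 0.21, adjusted p = 0.0494) and from 53.1 to 81.1 CPM in the synovium (0.63 ± 0.10, adjusted p = 0.00560). Acsl5 fell in the ileum (-0.47 ± 0.08, adjusted p = 0.0404, and 0.0511 with the replicate block) and rose in the synovium (0.42 ± 0.08, adjusted p = 0.00878), a difference between tissues of 0.87 ± 0.11 (adjusted p = 0.00162). Acsl1, the main form of fat tissue, fell in the synovium by 0.66 on the log2 scale (adjusted p = 0.0175). That call ended without TNFdARE replicates 1 or 3 or WT replicates 1 or 3 (-0.56 to -0.67, adjusted p from 0.0510 to 0.0639).

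In glycerolipid synthesis, the pathway that feeds the Dgat enzymes, 1 of 14 genes rose and 1 fell in the ileum, and 3 of 15 rose and 4 fell in the synovium. Lpin1, a phosphatidate phosphatase that makes diacylglycerol, read 52.0, 29.9 and 49.6 against 21.4, 17.7 and 18.9 CPM in the ileum (1.19 ± 0.22, adjusted p = 0.0417). In the synovium its mean was 43.1 CPM in TNFdARE mice and 84.1 CPM in WT mice (-0.94 ± 0.24, adjusted p = 0.0343), and the difference between tissues was -2.16 ± 0.35 (adjusted p = 0.00579). This synovial value was picked after it was seen, since other genes of the list had a smaller adjusted p. Gpat3 fell in the ileum (-0.70 ± 0.12, adjusted p = 0.0404). In the synovium Gk, glycerol kinase, rose by 0.78 (adjusted p = 0.00336), Agpat4 rose by 0.60 (adjusted p = 0.0112) and Agpat3 fell by 0.53 (adjusted p = 0.00599).

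Among 12 genes of SREBP, ChREBP and LXR control, Mlx, the partner of ChREBP, was the only one called in the ileum (-0.47 ± 0.09, adjusted p = 0.0454, and 0.0538 with the replicate block). In the synovium Mlxipl, which encodes ChREBP, read 13.2, 10.9 and 7.61 against 34.3, 29.5 and 33.1 CPM, a 3.01-fold decrease (-1.59 ± 0.19, adjusted p = 0.00203). Srebf2, the relative of Srebf1 that drives sterol synthesis, read 191, 186 and 184 against 125, 122 and 128 CPM, a narrow and complete separation (0.60 ± 0.06, adjusted p = 0.00110). Usf1 was called at 0.26 (adjusted p = 0.0498), and that call ended whichever library was left out (0.20 to 0.31, adjusted p from 0.0605 to 0.126). With all libraries kept it held with limma-voom and the replicate block. It ended with RLE factors (0.25, adjusted p = 0.0528), library totals alone (0.27, adjusted p = 0.0900) and no filter on low counts (0.27, adjusted p = 0.0654). The call also ended with DESeq2 (0.25, adjusted p = 0.0652), in the model of all 12 libraries (0.23, adjusted p = 0.0961) and in the deposited FPKM.

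Of the SREBP-2 target genes of sterol synthesis and uptake, 9 of 9 tested rose in the synovium, with a median log2 fold change of 1.20, and none of 10 was called in the ileum by edgeR, where the median was 0.29. Cyp51 read 67.2, 64.7 and 68.7 against 26.7, 21.6 and 31.6 CPM (1.35 ± 0.14, adjusted p = 0.00107). Sqle, squalene epoxidase, read 63.5, 52.8 and 60.1 against 23.7, 16.3 and 25 CPM (1.46 ± 0.17, adjusted p = 0.00183), and Lss rose by 0.75 (adjusted p = 0.00229). For Cyp51 and Sqle all TNFdARE libraries were at least as high as 52.8 CPM and no WT library exceeded 31.6 CPM. In the ileum Hmgcs1, the most abundant of the list there, stood at 0.17 (adjusted p = 0.482). In the synovial replicates 1 and 2 only, 5 of these genes were called. The difference between tissues was called for Sqle (1.57 ± 0.27, adjusted p = 0.00699) and Cyp51 (1.00 ± 0.23, adjusted p = 0.0210), but Lss gave 0.03 ± 0.30 (adjusted p = 0.973). Beside these genes, Srebf1 in the synovium had a log2 fold change of -0.03 and Fasn of -0.17.

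The 6 ileum calls of Acsl4, Acsl5, Lpin1, Gpat3, Me2 and Mlx all ended without TNFdARE replicate 3 or any WT replicate, with adjusted p from 0.150 to 0.176, and without TNFdARE replicate 1, with adjusted p from 0.0511 to 0.0633.

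**Figure D5:**
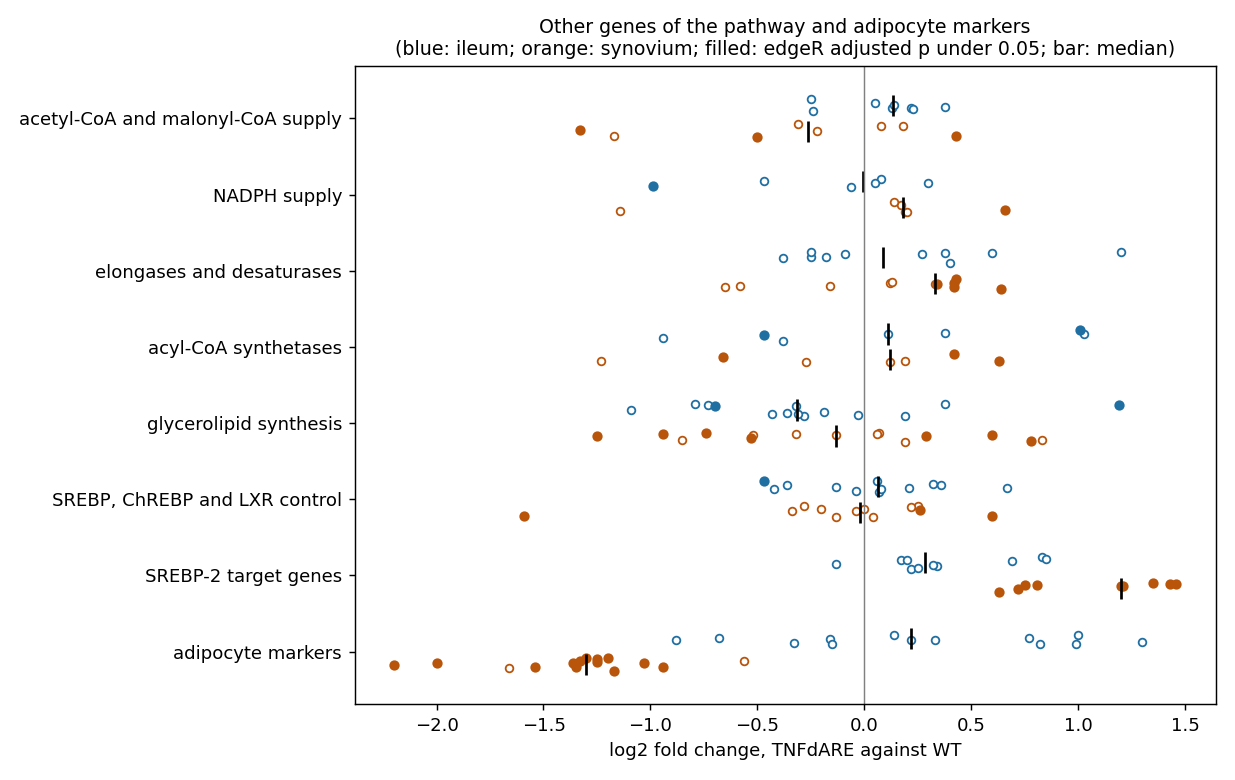
Log2 fold change of TNFdARE against WT for the other genes of the pathway and for adipocyte markers, by list; blue is ileum, orange synovium, filled points passed an edgeR adjusted p of 0.05 and bars mark list medians. The SREBP-2 target genes lie to the right in the synovium with a median of 1.20, and the adipocyte markers to the left with a median of -1.30.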

How the data were processed

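Bulk RNA of 12 libraries was analysed from the deposited raw counts per Ensembl gene. Per the labels' protocols, total RNA from the RNeasy Micro kit went through poly-A selection and the TruSeq Stranded mRNA kit to single-read NovaSeq sequencing. The tools cutadapt 1.15 and Bowtie2 2.3.3.1 and the build GRCm38 are listed in the submitters' processing notes. How reads were counted, with which annotation release and strand setting, is not given in the sources used here. Symbols, coordinates and exon lengths came from GENCODE M21, which matched 98.7% of identifiers. The deposited FPKM of the authors, for 17046 genes, served only as an alternative: none was 0, although 5756 belonged to a count of 0, so they had been adjusted by an unstated step.

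Each tissue was tested on its 6 libraries in R 4.3.3 with edgeR 4.0.16: filterByExpr, TMM and a two-sided quasi-likelihood F test with robust estimation, adjusted by Benjamini-Hochberg over all genes, with a threshold of 0.05. The difference between tissues and the tissue contrasts came from 1 model of the 4 groups over 12 libraries. An SE is the log2 fold change divided by the square root of F. Every adjusted p is edgeR's unless another tool is named. DESeq2 1.42.0 and limma 3.58.1 gave alternatives, as did other scaling factors, no filter and leaving out each library. The procedure was tested on simulated data.

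The 10 genes, the lists, the tests and the naming rule were chosen with earlier results of these data known. The rule named all 10 genes and, from each pathway list and tissue, up to 3 called genes with the smallest adjusted p or, with none called, the most abundant. It also named the 2 most abundant markers of each cell list, and the 5 genes most like Scd1 or Dgat2 among those whose log2 CPM averaged 3 or more. Not every gene it named is printed. Lists are described by counts and medians, without a set test.

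Replicate numbers were checked as pairing by correlating deviations from group means over 10800 genes. TNFdARE and WT libraries of the same number gave r = 0.232, 0.253 and 0.168 for ileum, and r = 0.485, 0.321 and 0.168 for synovium. Pairs of different numbers ranged from -0.275 to 0.155 and from -0.463 to 0.183, so the third pair was not set apart from these. Every same-number pair was above 0.1, but so were pairs of different numbers in both tissues, so pairing by number was not established. Values from a fit with number as a block stand beside the calls they change. Replicate 3 was female in every group, so this block also takes in sex. Replicates differed by 11.2 to 93.4 times the Poisson variance, so none was a repeat of another. The labels call them biological replicates without naming the animals, and p-values measure the spread between these libraries. Reads carried no molecular identifiers and may repeat a molecule, so the limit from 3 counts covers counting error only.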

Additional observations from a re-analysis of the deposited data

Results flagged for a closer look

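The genotype effect differed between synovium and ileum, by the interaction test of edgeR over all 12 libraries, for 6 of the 10 genes. The difference, synovium minus ileum on the log2 scale, was -2.42 for Scd1, -1.37 for Dgat2, -1.18 for Me1, -0.85 for Srebf1, -0.82 for Fasn and -0.53 for Acaca. Groups of 3 libraries are too small for the test of a single far value, so none was run; leaving out each library is described with the results.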

How the results depend on the processing

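No value called in a comparison changed sign under the alternatives run. In the ileum, where 3 of the 10 genes and 879 of all genes were called, library totals alone gave 6 and 1379, DESeq2 gave 8 and 2715, the model of all 12 libraries gave 7 and 2722, and the replicate block gave 6 and 1128. Limma-voom called 0 and 0, as did limma on log2(FPKM + 1) and on log2(FPKM + 0.1) of the deposited FPKM, and edgeR on replicates 1 and 2 only, a choice made after seeing the data. Leaving out 1 ileum library gave 0 to 9 of the 10 and 0 to 4633 genes. In the synovium, with 3 and 3713 called, the replicate block gave 5 and 4842, replicates 1 and 2 only gave 1 and 691, and leaving out 1 library gave 1 to 3 and 2141 to 2927. The gene called in replicates 1 and 2 only was Elovl6, which is not among the 3 of the main fit. For the difference between tissues, with 6 and 2050, DESeq2 gave 3193 genes, and leaving out 1 library gave 3 to 5 and 1015 to 3506. The cause of these shifts was not tested.

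The synovial call of Scd1 ended in the deposited FPKM (-0.66, adjusted p = 0.151 and 0.144 by limma at the pseudocounts 1 and 0.1). That FPKM was 743 in 4 synovium libraries and 373 in the other 2, while the counts ran from 25662 to 79703. Dgat2 lost its synovial call without the filter on low counts (-0.71, adjusted p = 0.0899) and Scd2 in the model of all 12 libraries (0.64, adjusted p = 0.0964). By CPM, 2 of the 10 genes, Scd1 and Me1, had their highest group mean in the synovium, and by deposited FPKM 4 did, with Fasn and Acaca added. Across equal numbers in different tissues the correlation of deviations lay between -0.121 and 0.147, so no pairing across tissues was used. The replicate block changed no call of the 10 genes beyond those given in the report. Depth did not limit these genes, whose lowest count in any library was 217.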
